A study of Homo sapiens with 27 samples.

Results

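The genes described here are 10 chemokines, the small secreted proteins that direct the migration of leukocytes: CXCL1, CXCL2, CXCL3, CXCL5, CXCL8, CXCL10 and CXCL16 of the CXC family and CCL2, CCL20 and CCL28 of the CC family. They were chosen by name, with earlier results of these data known, so comparisons of this set with all genes are descriptions. The same holds for the other gene lists below. Each member was found as 1 row among the 40487 rows of the count table, which hold 36536 symbols or unnamed identifiers. The cells were MCF10A, a non-tumorigenic line derived from human breast epithelium, grown in medium with serum and 20 ng/ml epidermal growth factor (EGF) and then held for 18 h without growth factors. All groups shared this starvation, and each had 3 libraries of polyadenylated RNA, 27 in all. T0 was collected at 0 h, and the other 8 groups were collected 24 h after fresh growth factor-free medium with phosphate-buffered saline (PBS) or ligand. The ligands, at 10 ng/ml each, were EGF, oncostatin M (OSM, which signals through gp130 like interleukin-6) and transforming growth factor beta (TGFB). They were given alone (EGF, OSM, TGFB), in pairs (EGF+OSM, EGF+TGFB, OSM+TGFB) or all together (EGF+OSM+TGFB). The series asks whether the responses to such signals add up when they are combined. Nothing in the labels says that the libraries of a group came from separate experiments, so p-values measure only the spread between these libraries, all from 1 cell line.

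As background, chemokines are grouped by the spacing of their first cysteines and act through G protein-coupled receptors. CXCL1, CXCL2, CXCL3, CXCL5 and CXCL8 (interleukin-8) bind CXCR2, with CXCL8 also binding CXCR1, and recruit neutrophils. CXCL10 is an interferon-induced ligand of CXCR3 on activated T cells, CXCL16 is a transmembrane ligand of CXCR6, CCL2 draws monocytes through CCR2, CCL20 draws CCR6-bearing lymphocytes and dendritic cells, and CCL28 is a mucosal chemokine of epithelia, mammary gland included, that binds CCR10 and CCR3. Transcription of many of these genes is driven by NF-kB, with AP-1 and STAT factors at some, and several of their RNAs are short-lived.

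Library totals, in units of 1e6 estimated counts, ran from 30.1 to 52.9 with a median of 39.5. The label of the cells was checked against 8 markers of mammary epithelium (KRT5, KRT14, KRT17, TP63, EPCAM, CDH1, ITGB4 and LAMB3). All were detected, and their summed level ran from 11300 to 28710 counts per 1e6 library counts (CPM). Of 8 leukocyte markers TYROBP was at 0 in all libraries and PTPRC, the pan-leukocyte CD45, was at 0.0413 to 0.133 CPM over the groups. The sum of this list still ran from 2.19 to 79.9 CPM, nearly all of it CD14, and its part in the results was not tested. The sum of 6 fibroblast and endothelial markers ran from 4.75 to 120.8 CPM, nearly all of it COL1A1, with CDH5 at or under 0.0571 CPM in every group.

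All 10 chemokines passed the filter on low counts, but 3 of them did so only through the groups where they were high: CXCL5 through EGF+OSM and EGF+OSM+TGFB, CCL2 through EGF+OSM, OSM+TGFB and EGF+OSM+TGFB, and CXCL10 through T0 and PBS. These 3 therefore had to differ between groups, and counts and p-values that include them are descriptions. Levels are CPM after TMM scaling (trimmed mean of M-values), given per library in the order of replicate number or as mean ± SD of 3 libraries. They are not divided by gene length, so they are compared between groups for a gene and not between genes. A lower level in such bulk RNA can come from fewer cells with the transcript or from less of it per cell, and these cannot be told apart.

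CXCL10 and the 5 neutrophil attractants lie on chromosome 4, and the stretch upstream of the latter and of CCL20 is shown first, because these members moved together in part of the design and apart in the rest. On GRCh38 (GENCODE release 44) CXCL8 (ENSG00000169429) is at chr4:73740519-73743716 and CXCL1 (ENSG00000163739) at chr4:73869393-73871308, both on the plus strand. CXCL5 (ENSG00000163735) at chr4:73995642-73998677, CXCL3 (ENSG00000163734) at chr4:74036589-74038807 and CXCL2 (ENSG00000081041) at chr4:74097040-74099196 follow on the minus strand, and CXCL10 (ENSG00000169245), also on the minus strand, is at chr4:76021118-76023497. The printed stretches are bases 150 to 31 before the RefSeq transcription start on GRCh38.p14, 5′ to 3′ on the gene's strand, and lie outside the RefSeq transcript that starts there. In GENCODE the CXCL1, CXCL2 and CXCL5 stretches lie outside the gene model, the CCL20 stretch lies in an intron of a longer transcript, and parts of the CXCL3 and CXCL8 stretches lie in the first exon of minor transcripts that start further upstream. Capitals mark matches, on either strand, to the NF-kB consensus or to its core GGAATTTCC, to the AP-1 element TGANTCA or to the STAT element TTCNNNGAA, and overlapping matches run together.
CXCL1: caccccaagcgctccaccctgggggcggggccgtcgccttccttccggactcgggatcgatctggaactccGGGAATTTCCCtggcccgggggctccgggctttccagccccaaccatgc
CXCL2: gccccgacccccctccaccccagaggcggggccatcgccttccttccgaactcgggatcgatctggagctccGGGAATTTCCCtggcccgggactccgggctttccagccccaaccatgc
CXCL3: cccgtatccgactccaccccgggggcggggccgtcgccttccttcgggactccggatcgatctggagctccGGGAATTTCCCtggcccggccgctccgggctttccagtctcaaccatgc
CXCL5: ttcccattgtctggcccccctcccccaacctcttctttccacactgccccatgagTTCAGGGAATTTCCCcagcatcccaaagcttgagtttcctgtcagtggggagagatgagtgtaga
CXCL8: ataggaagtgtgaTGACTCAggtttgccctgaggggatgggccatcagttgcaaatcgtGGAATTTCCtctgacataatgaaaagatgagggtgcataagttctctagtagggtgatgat
CCL20: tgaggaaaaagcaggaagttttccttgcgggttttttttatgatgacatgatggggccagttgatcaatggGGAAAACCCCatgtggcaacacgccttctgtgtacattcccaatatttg

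The 6 stretches are chr4:73869243-73869362 (CXCL1), chr4:74099226-74099345 (CXCL2), chr4:74038720-74038839 (CXCL3), chr4:73998708-73998827 (CXCL5), chr4:73740419-73740538 (CXCL8) and chr2:227813692-227813811 (CCL20). The core GGAATTTCC began 78 bases before the start in CXCL1 and CXCL3, 77 in CXCL2, 90 in CXCL5 and 91 in CXCL8. It was in 6 of the 9 promoters found for 8 of the 10 members (CXCL10 has it on the minus strand, and CCL28 has 2 promoters), against 0.413% of 35116 promoters over the same 250 bases. This core was searched for after the sequences were seen. A match to the longer NF-kB consensus GGGRNWYYCC (R is A or G, N any base, W is A or T, Y is C or T) was also in 6 of 9, against 5.21% of all. This set of 6 differs from that of the core: it holds CCL20 and not CXCL8. The AP-1 element, 137 to 131 bases before the start, was in CXCL8 alone of the 9, against 6.57% of all. The STAT element was in CXCL5 alone, 95 to 87 bases before the start and overlapping the NF-kB match, also against 6.57% of all. Over the 250 upstream bases CXCL1 and CXCL3 were 81.4% identical, CXCL2 was 73.3% identical to CXCL3 and 70.4% to CXCL1, and all pairs with CXCL5 or CXCL8 were between 42% and 51.1%. These matches describe the sequences, and factor binding was not measured.

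Against PBS, each combination with EGF raised the 5 neutrophil attractants together with CCL20. EGF, OSM and OSM+TGFB raised most of the 5, some on calls lost when a library was left out, and TGFB alone raised CXCL1 and CXCL8. CCL20 was higher in every ligand group, CCL28 was lower except with TGFB alone, and CCL2 was higher wherever OSM was present. Calls are at 0.05 on p-values of edgeR's quasi-likelihood test, adjusted by Benjamini-Hochberg over the 15575 genes tested, and log2 fold changes are given ± SE. EGF changed 7 of the 10 (4 higher, 3 lower), where 73.5% of all genes tested were called (34.9% higher, 38.6% lower). OSM changed 8 (6 higher, 2 lower) against 63.4% (33.5% and 29.8%), and 5 without PBS replicate 3. TGFB changed 5, all higher, against 35.6% (19.9% and 15.8%), and 3 without PBS replicate 3 or TGFB replicate 1. These shares are so high that a call by itself says little, and the direction and size carry the description.

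The combinations of ligands gave the same or larger numbers. EGF+OSM changed 10 members (7 higher, 3 lower) against 77.2% of all genes (37.6% and 39.6%). EGF+TGFB changed 8 (6 higher) against 73.7% (36.2% and 37.5%), and OSM+TGFB changed 8 (6 higher) against 66% (34.2% and 31.8%). All 3 ligands together changed 10 (7 higher) against 74.4% (37.7% and 36.7%). CXCL1, CXCL8 and CCL20 were called higher in all 7 comparisons with PBS, of which CXCL8 lost its OSM and OSM+TGFB calls without PBS replicate 3 (edgeR adjusted p 0.089 and 0.0523) and its OSM call without OSM replicate 2 (0.111).

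The median log2 fold change of the 10 was 0.83 with EGF, 0.87 with OSM and 0.35 with TGFB, against −0.07, 0.00 and −0.01 over all genes. Among the combinations it was 2.09 with EGF+OSM, 1.88 with EGF+TGFB, 0.81 with OSM+TGFB and 2.44 with all 3, where the medians over all genes lay between −0.05 and 0.00. Fitted fold changes of CXCL5, CCL2 and CXCL10 rest in part on groups with 3 counts or fewer. With these set at the value that 3 counts allow, the median was 0.25 with EGF and 1.36 with EGF+TGFB and the same in the other 5 comparisons with PBS. Leaving out the 2 or 3 members with 3 counts or fewer in a group compared, it was 0.15 with EGF, 0.26 with OSM, 0.35 with TGFB, 1.98 with EGF+OSM, 1.42 with EGF+TGFB, 0.53 with OSM+TGFB and 2.30 with all 3.

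**Figure D1:**
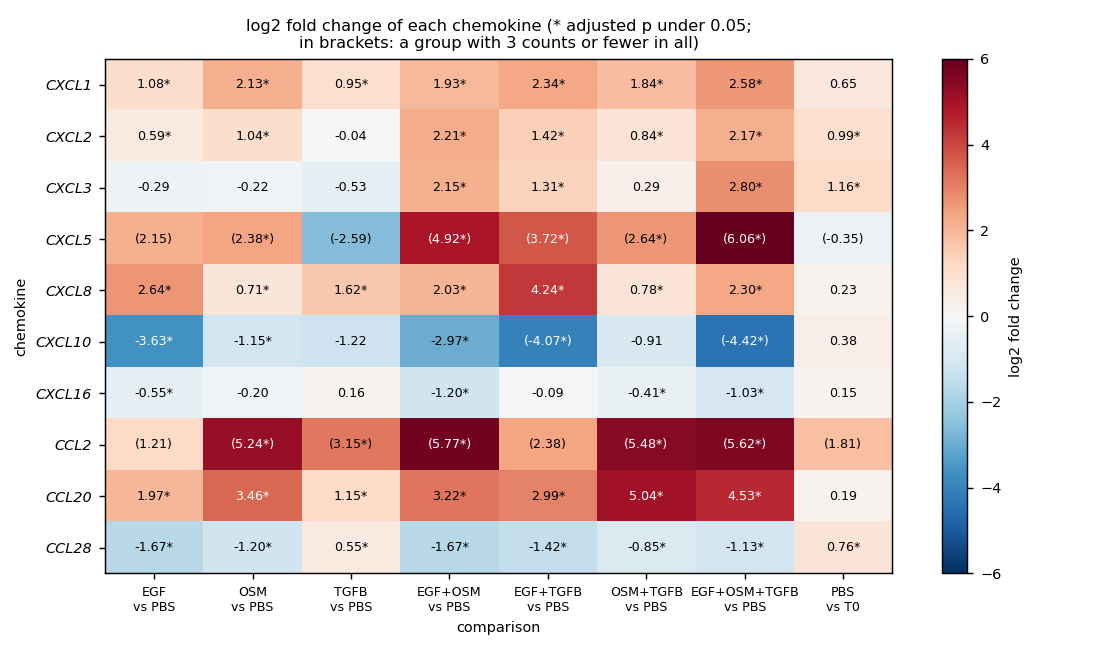
Log2 fold change of each chemokine (rows) in the 7 ligand groups against PBS and in PBS against T0 (columns); an asterisk marks an adjusted p under 0.05, and brackets mark values in which a group has 3 counts or fewer in all. CCL20 is red in all 7 ligand columns, up to 5.04 with OSM+TGFB. CCL28 is blue in the ligand columns except TGFB, and red in PBS against T0. CXCL3 has no asterisk with a single ligand and lies between 1.31 and 2.80 in the 3 combinations that contain EGF.

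CXCL8 was lowest without ligand and by far highest with EGF+TGFB. The PBS libraries held 3.70, 3.11 and 1.83 CPM, those with TGFB 7.57, 8.93 and 10.1, those with EGF 20.9, 18.4 and 14.4, and those with EGF+TGFB 60.5, 57.7 and 45.3. These 4 groups did not overlap in any library. The log2 fold change against PBS was 2.64 ± 0.22 with EGF, 1.62 ± 0.23 with TGFB and 4.24 ± 0.22 with both, which is 18.9-fold (edgeR adjusted p 8.9e-14).

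With OSM the same gene took the other course. CXCL8 stood at 3.73, 5.92 and 4.37 CPM with OSM alone, a little above PBS (log2 fold change 0.71 ± 0.24, edgeR adjusted p 0.0133). That call rests on single libraries: without PBS replicate 3 the value was 0.48 and the adjusted p 0.089, and without OSM replicate 2 they were 0.49 and 0.111. With EGF+OSM the libraries read 12.2, 13.8 and 9.20 CPM, with OSM+TGFB 4.35, 5.60 and 4.88, and with all 3 ligands 13.8, 16.6 and 12.3. Each of these groups lay below its counterpart without OSM in every library. OSM+TGFB was above PBS by 0.78 ± 0.24 (edgeR adjusted p 0.00738), and without PBS replicate 3 by 0.54 (0.0523).

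When OSM was added to EGF, CXCL8 fell by 0.61 on the log2 scale (edgeR adjusted p 0.0171). When it was added to TGFB, CXCL8 fell by 0.84 (adjusted p 0.0023), and on top of EGF+TGFB it fell by 1.94, or 3.84-fold (adjusted p 5.75e-08). The first of these was lost without EGF replicate 1 (−0.48, adjusted p 0.0915) or EGF+OSM replicate 3 (−0.46, adjusted p 0.105). The other 2 held whichever library was left out. OSM lowered 17.1% of all genes when added to EGF, 26.4% when added to TGFB and 12.8% when added to EGF+TGFB.

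CXCL1, a CXCR2 ligand first known as a melanoma growth factor, was higher than PBS with all 7 ligand groups. The PBS libraries were at 3.402, 6.472 and 4.228 CPM, the EGF libraries at 11.8, 11.2 and 6.88, the OSM libraries at 19.7, 26.5 and 15.9 and the TGFB libraries at 8.93, 9.34 and 9.23. EGF and TGFB overlapped, and OSM lay above both, by 1.05 ± 0.21 on the log2 scale over EGF (edgeR adjusted p 0.000209). OSM+TGFB (15.4, 19.7 and 15.8), EGF+OSM (16.9, 21.9 and 15.4) and OSM alone overlapped, and neither EGF nor TGFB added to OSM gave a called change (EGF added to OSM −0.20 ± 0.21).

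EGF+TGFB (24.6, 24.3 and 22.9 CPM) and EGF+OSM+TGFB (26.41, 31.01 and 27.77) had the highest means of CXCL1, and OSM replicate 2 (26.5) reached into the range of the latter. Against PBS the log2 fold change was 2.34 ± 0.23 with EGF+TGFB and 2.58 ± 0.23, or 5.99-fold, with all 3 (edgeR adjusted p 1.02e-09). TGFB raised CXCL1 when added to EGF (1.26 ± 0.21) and when added to EGF+OSM (0.65 ± 0.20), the latter with an adjusted p of 0.00887 that became 0.0502 in edgeR without EGF+OSM replicate 3.

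CXCL2 and CXCL3, near copies of CXCL1 in sequence, were highest in combinations that contained EGF. CXCL2 read 1.33, 2.05 and 1.27 CPM under PBS, 2.96, 2.13 and 1.93 under EGF, 3.19, 3.37 and 3.02 under OSM and 1.44, 1.58 and 1.53 under TGFB. PBS overlapped both EGF and TGFB, while OSM lay above all 3 groups. The EGF call (0.59 ± 0.21, edgeR adjusted p 0.013) was lost without PBS replicate 1 (0.49, adjusted p 0.0625), PBS replicate 3 (0.47, 0.0729) or EGF replicate 1 (0.39, 0.118). OSM raised CXCL2 by 1.04 ± 0.20.

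With EGF+OSM CXCL2 was at 7.99, 7.84 and 5.89 CPM, with EGF+OSM+TGFB at 5.31, 8.08 and 7.74, with EGF+TGFB at 3.96, 4.27 and 4.25 and with OSM+TGFB at 2.30, 2.99 and 3.08. The first 2 groups overlapped and stood clear of the rest. EGF+OSM was 4.64-fold above PBS (2.21 ± 0.20, edgeR adjusted p 1.65e-10), and OSM added to EGF raised the gene by 1.63 ± 0.19.

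CXCL3 was not called with any single ligand in the full fit, and rose with the combinations that contained EGF. With TGFB it was called lower without TGFB replicate 2 (−0.79, edgeR adjusted p 0.0177). The PBS libraries held 0.951, 0.863 and 1.05 CPM, the EGF libraries 0.912, 0.699 and 0.732, the OSM libraries 0.655, 0.799 and 0.999 and the TGFB libraries 0.392, 0.864 and 0.710. All 4 groups overlapped, and the log2 fold change was −0.29 ± 0.22 with EGF (95% interval −0.74 to 0.16), −0.22 ± 0.22 with OSM (−0.67 to 0.24) and −0.53 ± 0.23 with TGFB (−1.001 to −0.07, edgeR adjusted p 0.0704, not called). With EGF+OSM the libraries read 4.58, 4.19 and 3.99 CPM, with EGF+TGFB 2.17, 2.15 and 2.85, with OSM+TGFB 1.18, 1.09 and 1.22 and with all 3 ligands 6.16, 6.93 and 6.89. These 4 groups were separate from each other and all above PBS.

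The increase of CXCL3 over PBS was 2.15 ± 0.20 with EGF+OSM, 1.31 ± 0.20 with EGF+TGFB and 2.80 ± 0.20, or 6.97-fold, with all 3 (edgeR adjusted p 1.99e-12). The value with OSM+TGFB did not pass the test. Adding OSM to EGF raised CXCL3 by 2.44 ± 0.20, adding EGF to OSM by 2.37 ± 0.20 and adding EGF to OSM+TGFB by 2.51 ± 0.20, each over 5-fold. CXCL1, CXCL2 and CXCL3 share stretches of transcript: 13.7%, 23.6% and 9.23% of their respective 31-base words occur in another gene. How the authors' estimates split reads in these stretches could move counts between them, and a transfer was not tested.

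CXCL5, another CXCR2 ligand, was close to absent except where EGF was combined with another ligand. PBS held 2 counts over its 3 libraries (0, 0.0216 and 0.0244 CPM) and TGFB held 0. EGF+OSM stood at 0.542, 0.768 and 0.379 CPM, EGF+TGFB at 0.330, 0.203 and 0.206 and EGF+OSM+TGFB at 0.832, 1.99 and 0.972. These 3 groups were ordered without overlap and lay above every PBS, EGF and OSM library. OSM+TGFB, at 0.112, 0.201 and 0.0290 CPM, overlapped EGF alone and OSM alone.

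In counts scaled by depth the ratio of CXCL5 to PBS was 36.2 with EGF+OSM (68 counts against 2, 95% interval 9.65 to 305.2), 15.5 with EGF+TGFB (28 counts, interval 3.91 to 134.3) and 76.5 with all 3 ligands (122 counts, interval 20.7 to 638.7). Such intervals cover counting error only. Against TGFB, which held 0 counts, the ratio for EGF+TGFB had a lower 95% limit of 7.205. OSM held 11 counts (ratio to PBS 5.97, interval 1.30 to 55.4), and its call (edgeR adjusted p 0.0445) was lost without any of the 3 PBS libraries or without OSM replicate 3 (adjusted p 0.0615 to 0.29). It was also lost with DESeq2 (0.0681) and with upper-quartile scaling (edgeR adjusted p 0.0504). OSM+TGFB held 12 counts (ratio 7.28, interval 1.62 to 66.99), and its call (0.0231) was lost without PBS replicate 1 (0.077) or OSM+TGFB replicate 2 (0.142). EGF also held 11 counts (log2 fold change 2.15 ± 1.02) and was not called, except without EGF replicate 3 (edgeR adjusted p 0.0313). The call for TGFB added to EGF (adjusted p 0.0463 in edgeR) was lost without EGF replicate 2 or 3 or any EGF+TGFB library (0.0508 to 0.169), and that for TGFB added to EGF+OSM (0.0384) without EGF+OSM replicate 1 (0.0923) or 3 (0.153) or EGF+OSM+TGFB replicate 2 (0.29). Both were also lost with DESeq2 (0.0701 and 0.0977), without the filter (edgeR adjusted p 0.058 and 0.0734) and with rows as deposited (0.0525 and 0.0586). Upper-quartile scaling lost the first as well (edgeR adjusted p 0.0517).

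**Figure D2:**
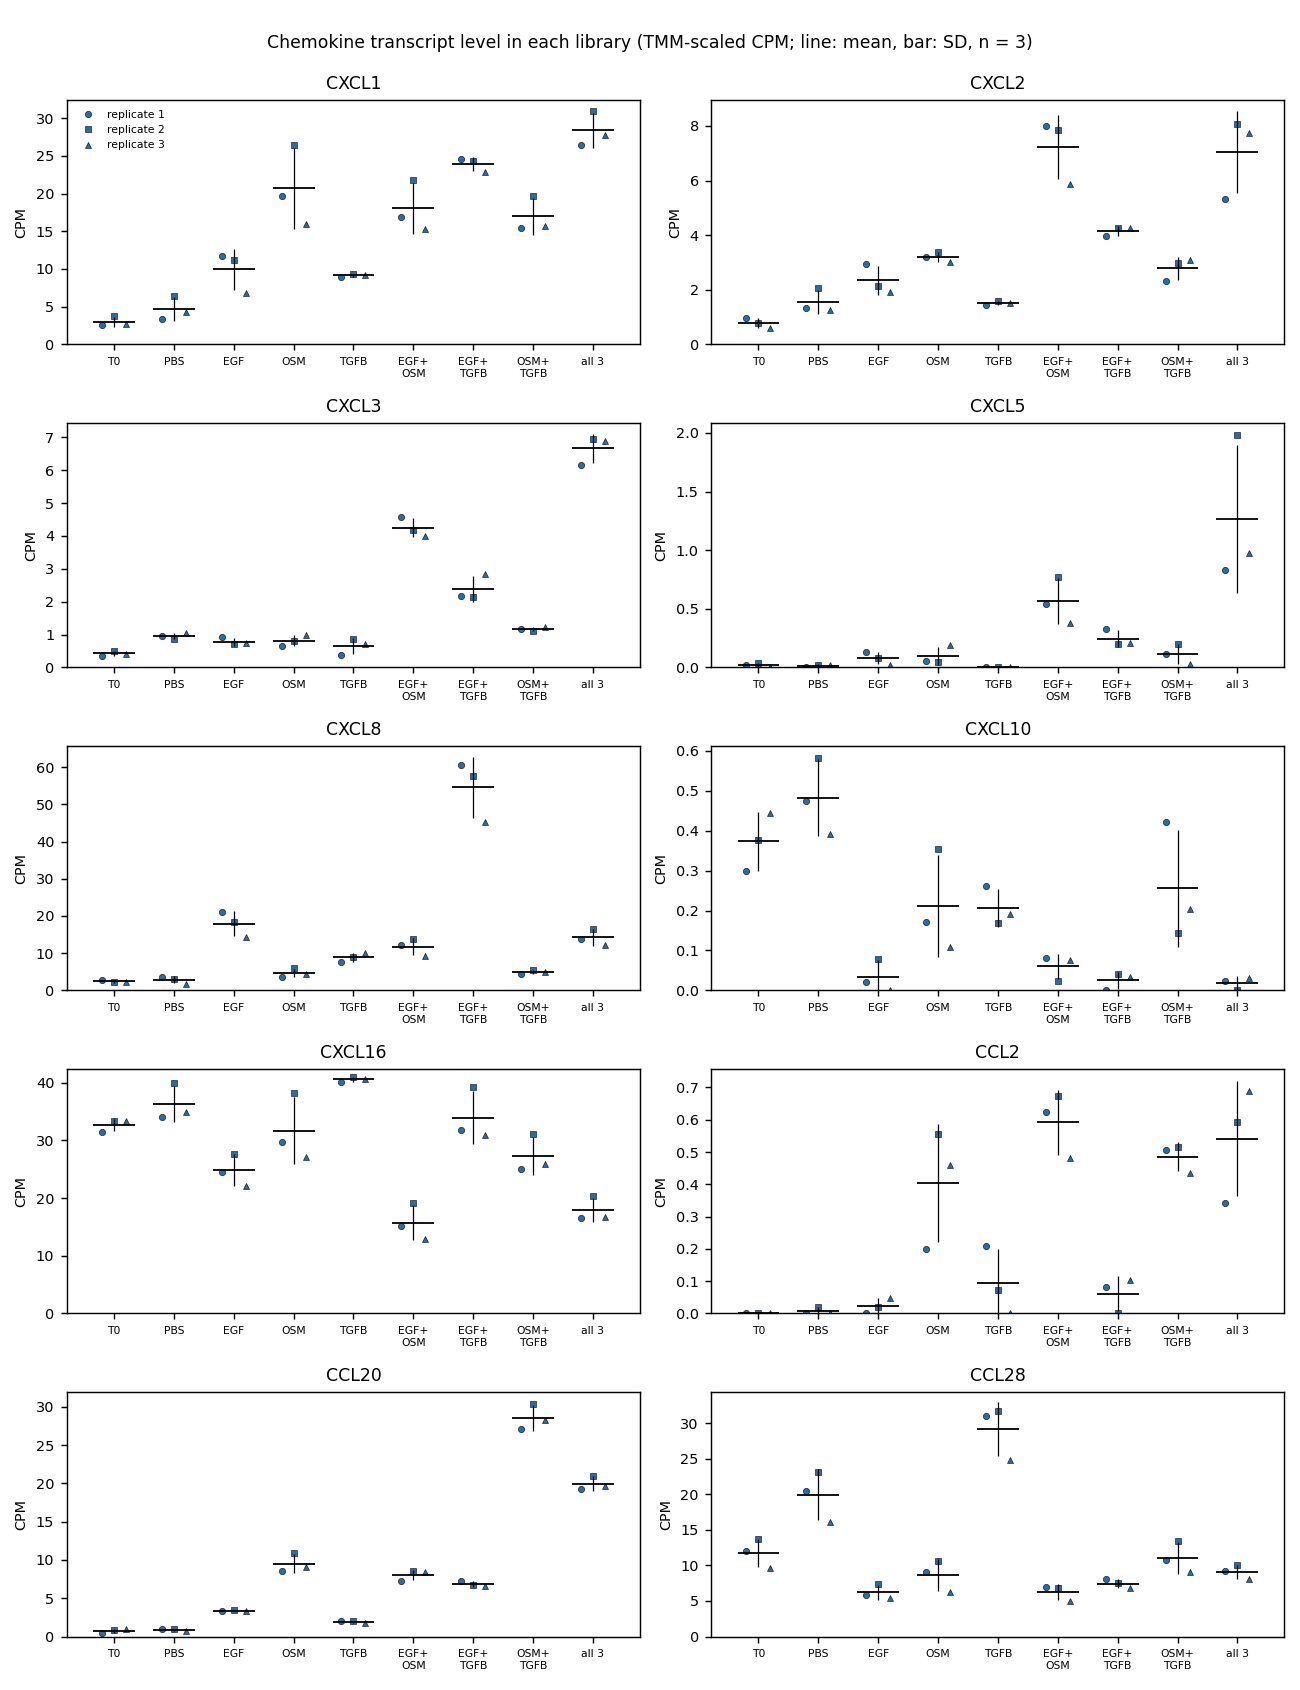
Level of each chemokine in TMM-scaled CPM (vertical axes, linear and different for each gene) in the 3 libraries of each of the 9 groups (horizontal axes); points are libraries, horizontal lines means and vertical bars SD. CXCL8 peaks with EGF+TGFB at 54.5 CPM and CCL20 with OSM+TGFB at 28.6, CXCL3 and CXCL5 peak with all 3 ligands at 6.66 and 1.26, and CXCL10 is highest in PBS at 0.483.

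CXCL10, the interferon-induced ligand of CXCR3, went the other way. It read 0.475, 0.583 and 0.391 CPM under PBS, 0.0222, 0.0798 and 0 under EGF, 0.171, 0.355 and 0.108 under OSM and 0.261, 0.168 and 0.191 under TGFB. Every ligand library except OSM+TGFB replicate 1 (0.421) lay below the lowest PBS library. With EGF the level was 12.4-fold lower than in PBS (−3.63 ± 0.63 on the log2 scale), and with EGF+OSM (0.0813, 0.0233 and 0.0758 CPM) 7.86-fold lower. CXCL10 was kept in the test because T0 and PBS were high, so these values are given with no p.

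The other groups with EGF were lower still in counts. EGF+TGFB held 3 CXCL10 counts against 62 in PBS (ratio 0.0536, 95% counting interval 0.0108 to 0.164), and all 3 ligands held 2 (ratio 0.0404, interval 0.00479 to 0.152). OSM against PBS gave −1.15 ± 0.49 on the log2 scale, also with no p for the same reason. It was called in the full edgeR fit. The call was lost when any of the 3 PBS libraries or OSM replicate 1 or 3 was left out. It was also lost with DESeq2, without the filter and with rows as deposited. Neither OSM nor EGF+OSM was a group through which CXCL10 passed the filter. With EGF added to OSM, CXCL10 fell by 1.82 on the log2 scale (edgeR adjusted p 0.0186), a call lost without OSM replicate 2 (0.19) or EGF+OSM replicate 2 (0.0939). CXCL10 sequence is not shared: 0 of its 31-base words occur in another gene.

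CXCL16 (ENSG00000161921, chr17:4733533-4739928, minus strand), whose transmembrane form can be shed by ADAM proteases, moved least of the 10, with 2.57-fold between its lowest and highest group means. The PBS libraries stood at 34.1, 39.9 and 34.9 CPM, those with EGF at 24.6, 27.7 and 22.1, those with OSM at 29.7, 38.2 and 27.1 and those with TGFB at 40.2, 40.9 and 40.6. EGF lay below PBS in all libraries (−0.55 ± 0.13, edgeR adjusted p 0.000669), while OSM overlapped PBS and TGFB, above every PBS library, did not pass the test (0.16 ± 0.13).

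With EGF+OSM CXCL16 fell to 15.17, 19.13 and 12.99 CPM, and with all 3 ligands to 16.6, 20.3 and 16.7, both below the EGF libraries. These are 2.30-fold and 2.04-fold below PBS (edgeR adjusted p 2.83e-08 and 4.03e-07). EGF+TGFB (31.8, 39.2 and 30.9) overlapped PBS, and TGFB added to EGF raised CXCL16 by 0.46 ± 0.13, a call lost without EGF+TGFB replicate 2 (0.33, edgeR adjusted p 0.0541). With OSM+TGFB (24.97, 31.03 and 25.85) CXCL16 fell by 0.41 on the log2 scale from PBS. Replicate 2 held the highest CXCL16 level in 8 of the 9 groups.

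CCL2 (ENSG00000108691, chr17:34255274-34257208, plus strand), the monocyte attractant, was at or near 0 in T0, PBS and EGF and highest in the groups with OSM. T0 held 0 counts, PBS 1 and EGF 3. The OSM libraries were at 0.199, 0.555 and 0.459 CPM, EGF+OSM at 0.623, 0.675 and 0.480, OSM+TGFB at 0.505, 0.517 and 0.436 and EGF+OSM+TGFB at 0.342, 0.592 and 0.690. These 4 groups overlapped each other, and their lowest library lay above all but 1 of the 15 libraries without OSM, TGFB replicate 1 at 0.209.

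In counts, OSM held 49 of CCL2 against 1 in PBS (ratio 53.2, 95% counting interval 9.11 to 2143), and OSM added to EGF gave 71 against 3 (ratio 26.96, interval 8.86 to 133.8). TGFB held 11 counts, of which replicate 3 had none (0.209, 0.0720 and 0 CPM). Its call against PBS (edgeR adjusted p 0.049) was lost without PBS replicate 1 or 3 or TGFB replicate 1 or 2 (0.0637 to 0.36). It was also lost with upper-quartile scaling (edgeR adjusted p 0.0501) and with rows as deposited (0.0504). Neither EGF nor TGFB added to OSM changed CCL2 beyond the spread.

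CCL20 (ENSG00000115009, chr2:227805739-227817564, plus strand), the CCR6 ligand, had the widest range of the members with more than 3 counts in every group, 37.8-fold from T0 to OSM+TGFB. It read 0.925, 0.928 and 0.733 CPM under PBS, 1.98, 2.02 and 1.75 under TGFB, 3.32, 3.47 and 3.39 under EGF and 8.60, 10.9 and 9.04 under OSM. No library of these groups overlapped another group. The log2 fold change was 1.15 ± 0.17 with TGFB, 1.97 ± 0.16 with EGF and 3.46 ± 0.15, or 11.01-fold, with OSM (edgeR adjusted p 2.67e-16).

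With OSM+TGFB CCL20 reached 27.04, 30.42 and 28.31 CPM, 32.99-fold over PBS (5.04 ± 0.15, edgeR adjusted p 4.36e-20), and with all 3 ligands 19.2, 21.0 and 19.7. EGF+TGFB stood at 7.29, 6.72 and 6.58, and EGF+OSM at 7.31, 8.54 and 8.37. EGF+OSM thus lay below OSM alone in all libraries, by a log2 fold change of −0.24 ± 0.12 that did not pass the test. With the replicate number as a block this difference was called (−0.24, edgeR adjusted p 0.0432). When EGF was added to OSM+TGFB, CCL20 fell by 0.52 (edgeR adjusted p 0.000278), and this call held whichever library was left out. TGFB raised CCL20 on top of EGF (1.02 ± 0.13), OSM (1.58 ± 0.11) and EGF+OSM (1.30 ± 0.11), in every library.

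CCL28 (ENSG00000151882, chr5:43376645-43412391, minus strand), the mucosal chemokine, was highest with TGFB and lowest with EGF, EGF+OSM and EGF+TGFB. It stood at 20.46, 23.17 and 16.11 CPM under PBS, 30.98, 31.7 and 24.81 under TGFB, 9.14, 10.6 and 6.24 under OSM and 5.83, 7.44 and 5.44 under EGF. PBS and TGFB lay above every other group, T0 included, and OSM overlapped EGF. EGF lowered CCL28 3.18-fold (−1.67 ± 0.19, edgeR adjusted p 5.22e-08) and OSM 2.29-fold. TGFB raised it by 0.55 ± 0.18 (adjusted p 0.0185), a call lost without PBS replicate 3 (0.42, adjusted p 0.108), TGFB replicate 1 (0.50, 0.065) or TGFB replicate 2 (0.49, 0.0741). The TGFB call was also lost without the filter (0.53, edgeR adjusted p 0.0583).

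In the combinations CCL28 was at 7.01, 6.87 and 4.93 CPM with EGF+OSM, 8.14, 7.45 and 6.75 with EGF+TGFB, 10.8, 13.5 and 9.03 with OSM+TGFB and 9.20, 10.1 and 8.02 with all 3, all below PBS. EGF added to TGFB lowered it 3.91-fold (edgeR adjusted p 4.4e-09), and OSM added to TGFB 2.63-fold. EGF+OSM overlapped EGF alone. TGFB added to EGF+OSM raised CCL28 by 0.54 ± 0.20 (edgeR adjusted p 0.026), a call lost without EGF+OSM replicate 3 (0.139) or EGF+OSM+TGFB replicate 1 (0.0609) or 2 (0.0922). It was also lost without the filter (edgeR adjusted p 0.0651). With EGF added to OSM, CCL28 fell by 0.47 (edgeR adjusted p 0.0458), a call lost without OSM replicate 1 (0.11) or 2 (0.272) or EGF+OSM replicate 3 (0.213), and with DESeq2's size factors (0.0601). That call was also lost without the filter (edgeR adjusted p 0.127) and with only the groups compared (0.0747).

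Adding a ligand to another changed different numbers of the 10. OSM added to EGF changed 8 (6 higher) against 34.9% of all genes, OSM added to TGFB 9 against 56.6% and OSM added to EGF+TGFB 7 against 26.4%. EGF added to OSM changed 7 against 61.7%, EGF added to TGFB 8 against 69.4% and EGF added to OSM+TGFB 8 against 52.2%. TGFB added to EGF raised 7 and lowered none, against 54.6% of all genes called and 27% raised. TGFB added to EGF+OSM raised 5, against 61.1% called and 31.6% raised, and TGFB added to OSM raised CCL20 alone, against 51.6% called and 26.1% raised. In the last comparison the replicate block added 2 calls, CXCL16 (−0.21, edgeR adjusted p 0.0213) and CCL28 (0.36, 0.00141). The block also added CCL28 for TGFB added to EGF (0.25, edgeR adjusted p 0.0258) and for OSM added to EGF+TGFB (0.29, 0.018). The number for TGFB added to EGF+OSM was 2 without EGF+OSM replicate 3, and 3 without EGF+OSM+TGFB replicate 2 or without the filter. The number for TGFB added to OSM was 2 without OSM replicate 2 or 3.

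Set directly against EGF, OSM gave higher levels of 6 members and a lower level of CXCL8 (log2 fold change −1.93 ± 0.21, 3.80-fold lower, edgeR adjusted p 6.94e-08), where 56.8% of all genes were called. CXCL1, CCL20 (1.49 ± 0.12) and CCL2 (49 counts against 3, ratio 18.95, 95% counting interval 6.12 to 95.1) were among the 6 and held without any single library. The calls for CXCL10, CXCL16 and CCL28 were lost without OSM replicate 2 (edgeR adjusted p 0.0557, 0.24 and 0.274), which left 4 of the 7. CXCL16 and CCL28 were also lost without EGF replicate 1 (0.0615 and 0.124) or 3 (0.119 and 0.158), and CCL28 without OSM replicate 1 (0.112). Without the filter both were lost too (edgeR adjusted p 0.0908 and 0.124). CCL28 was further lost with DESeq2 (adjusted p 0.0513), DESeq2's size factors (edgeR adjusted p 0.0647) and only the groups compared (edgeR adjusted p 0.0712). With the replicate block CXCL2 was called too (0.45, edgeR adjusted p 0.0434).

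The question of the series, whether responses add up, was put to each member as a departure, in which the single-ligand log2 fold changes against PBS were subtracted from that of the combination. It is 0 where fold changes multiply. The sum named below is thus that of log2 fold changes, and whether levels add up in CPM was not tested. The response to EGF+OSM departed from the sum in 5 of the 10 members (38.7% of all genes did), EGF+TGFB in 2 (29.8%), OSM+TGFB in 3 (23.3%) and all 3 ligands in 5 (48%). The departures went in both directions, and CXCL3 stood above its sum in all 4 combinations. CXCL5, CXCL10 and CCL2 are left out of what follows, since their sums rest on groups with few counts, and none of their departures was called.

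CXCL3 departed by 2.66 ± 0.30 with EGF+OSM (edgeR adjusted p 7.98e-08), 2.13 ± 0.31 with EGF+TGFB (1.15e-05) and 3.84 ± 0.43, or 14.3-fold over the product of the single fold changes, with all 3 (6.35e-08). With OSM+TGFB the departure was 1.04 ± 0.32 (edgeR adjusted p 0.0183), and this call was lost without TGFB replicate 1 (0.78, 0.0612) or with only the groups compared in the fit (1.03, 0.0844). Of all genes 15.7%, 13.3%, 22% and 9.61% stood above their sum in these 4 combinations. The single-ligand values of CXCL3 were all below 0 and not called in the full fit, so subtracting them enlarged each departure. CXCL3 with OSM+TGFB was itself not called against PBS. CXCL2 stood above its sum with EGF+TGFB (0.87 ± 0.29, edgeR adjusted p 0.0257), a call lost without EGF replicate 2 (0.0591) or 3 (0.0749), EGF+TGFB replicate 2 (0.0528), PBS replicate 2 (0.136) or TGFB replicate 1 (0.0562), which leaves CXCL3 as the 1 member called there.

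CXCL8 stood below its sum wherever OSM was present, with departures of −1.32 ± 0.31 with EGF+OSM (edgeR adjusted p 0.00159), −1.55 ± 0.32 with OSM+TGFB (0.00133) and −2.66 ± 0.46 with all 3 (4.92e-05). With EGF+TGFB the departure of CXCL8 was −0.01 ± 0.27, with a 95% interval of −0.58 to 0.56, so its 18.9-fold rise there lay near the product of the single responses. CXCL1 was below its sum in the same 3 combinations, at −1.28 (edgeR adjusted p 0.0023), −1.24 (0.00602) and −1.58 (0.00722). CCL20 was below its sum with EGF+OSM (−2.21, edgeR adjusted p 2.22e-09) and with all 3 (−2.05, 9.69e-06). CCL20 with OSM+TGFB, its highest group, had a departure of 0.43 ± 0.21 that did not pass the test (95% interval −0.0029 to 0.87). Without any single library these calls were kept, with adjusted p up to 0.0496 for CXCL1 with all 3.

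CCL28 fell less than the sum with EGF+OSM (departure 1.20 ± 0.28, edgeR adjusted p 0.00142) and with all 3 ligands (1.18 ± 0.37, 0.0109). The second call was lost without PBS replicate 2 (0.93, edgeR adjusted p 0.0679). EGF and OSM each lowered CCL28, and their pair (6.27 ± 1.16 CPM) stood no lower than EGF alone (6.24 ± 1.06). The PBS and single-ligand libraries enter several of these departures, so the 4 combinations are not independent of each other.

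**Figure D3:**
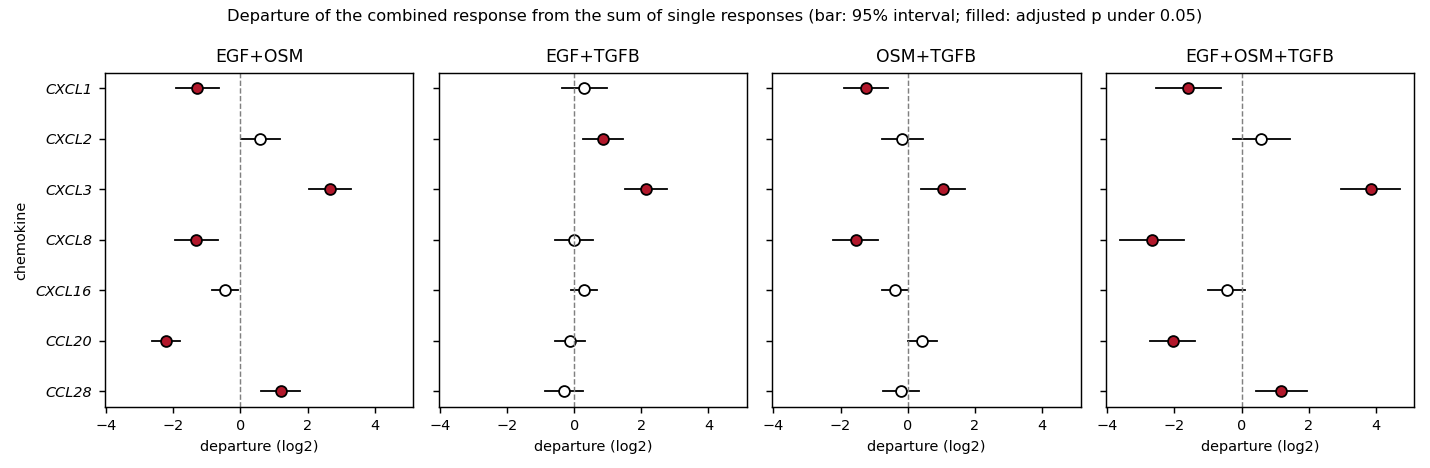
Departure of the response to each combination from the sum of the single-ligand log2 fold changes (horizontal axes, log2) for the 7 chemokines with more than 3 counts in every group; points are estimates, bars 95% intervals, filled points have an adjusted p under 0.05, and the dashed line at 0 marks additive log2 fold changes. CXCL3 lies right of 0 in all 4 panels, at 2.66, 2.13, 1.04 and 3.84, and CXCL8 lies left of 0 in the 3 panels with OSM and on the line at −0.01 with EGF+TGFB.

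The effect of TGFB on top of EGF and on top of OSM was also compared directly, in a contrast added after the levels had been seen and without any PBS library. TGFB raised CXCL8 by 1.61 ± 0.19 on EGF and gave 0.07 ± 0.23 on OSM, a difference of 1.54 ± 0.29 (edgeR adjusted p 0.00213). For CXCL1 the difference was 1.55 ± 0.30 (adjusted p 0.00214). Of the 10 members 6 were called, against 7.23% of all genes, but CXCL2, CXCL3, CXCL16 and CCL20 were each lost without some of the libraries, so that the number ranged from 2 to 6 with 1 library left out. It was 2 without EGF replicate 3 or OSM+TGFB replicate 1 and 3 without EGF replicate 2 or EGF+TGFB replicate 2. CXCL1 and CXCL8 stayed called in each of these fits.

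Between T0 and PBS, the time and fresh medium without ligand, 3 of the 10 members were higher in PBS, where 35.1% of all genes were called, 16.2% higher. CXCL2 rose from 0.958, 0.774 and 0.606 CPM to 1.33, 2.05 and 1.27 (0.99 ± 0.23, edgeR adjusted p 0.00134). CXCL3 rose from 0.341, 0.510 and 0.420 CPM to the PBS levels given above (1.16 ± 0.23, adjusted p 0.000353), and CCL28 from 11.96, 13.65 and 9.654 (0.76 ± 0.18, adjusted p 0.00234). CXCL1 was at 2.55, 3.79 and 2.63 CPM in T0, overlapping PBS (0.65 ± 0.26, edgeR adjusted p 0.054). It was called without PBS replicate 1 (0.83, adjusted p 0.0207) or T0 replicate 2 (0.87, 0.0276). With all libraries kept it was called with DESeq2 (adjusted p 0.0105), DESeq2's size factors (edgeR adjusted p 0.0485) and rows as deposited (edgeR adjusted p 0.0495). No member was called lower in PBS than in T0, and CXCL8, CXCL10, CXCL16 and CCL20 were not called.

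The order of the groups differed between members. CCL20 separated best: from PBS upward TGFB, EGF, EGF+TGFB, EGF+OSM, OSM, EGF+OSM+TGFB and OSM+TGFB followed without overlap, and only T0 and PBS overlapped. For CXCL3 the single-ligand, T0 and PBS groups overlapped their neighbours, and OSM+TGFB, EGF+TGFB, EGF+OSM and EGF+OSM+TGFB followed in 4 separate steps. For CXCL8 the separate steps were T0 with PBS, then OSM with OSM+TGFB, then TGFB through EGF+OSM and EGF+OSM+TGFB to EGF, neighbours in this run overlapping, and last EGF+TGFB. CCL2 had no clear step between neighbours, since TGFB bridged the groups without and with OSM.

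Over the 9 group means, which share libraries and scaling and carry no p here, the log2 levels of CXCL3 and CXCL5 had a Pearson correlation of 0.954, CXCL2 and CXCL3 of 0.914 and CXCL1 and CCL20 of 0.901. CXCL8 and CXCL10 ran opposite to each other (−0.898). Within groups, over the deviations of the 27 libraries from their group means, the highest correlation was 0.743 between CXCL1 and CXCL16, which have different group patterns. Among CXCL1, CXCL2 and CXCL3 it was 0.579 for CXCL1 and CXCL2, 0.0933 for CXCL2 and CXCL3 and 0.0348 for CXCL1 and CXCL3.

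The genes most like each member over the 9 groups were searched among 12652 tested genes with a mean of at least 1 CPM, and 3 are named for each, with Pearson's r of log2 group means. For CXCL1 they were C1GALT1 (0.977), BCAR1 (0.975) and PLEKHG3 (0.967), for CXCL2 STT3B (0.968), ANKRD27 (0.967) and ERICH1 (0.961), and for CXCL3 ANKRD36C (0.966), TGFA (0.958) and PIK3C2A (0.952). TGFA encodes a ligand of the EGF receptor and ran from 45.2 CPM in T0 to 261.9 with all 3 ligands. CXCL5 was nearest to FKBP15 (0.967), PGRMC1 (0.964) and ANKRD36 (0.960), and CXCL8 to VANGL1 (0.971), MAST2 (0.966) and HES6 (0.966). With so many candidates and 9 points, high values of r are frequent. Pearson's r also takes no account of the size of a change, here and below. STT3B ran from 176.3 CPM in T0 to 205 with EGF+OSM, where CXCL2 ran from 0.779 to 7.24. TGFA moved more, as given above. For CXCL5, CXCL10 and CCL2 r rests in part on groups with 3 counts or fewer.

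Nearest to CXCL10 were NFE2L2 (0.991), the gene of the oxidative stress factor NRF2, LPAR6 (0.980) and SLX4IP (0.979). CXCL16 was nearest to LINGO2 (0.985), STAP2 (0.946) and PLEKHA6 (0.934). For CCL2 the nearest were CARHSP1 (0.991), MIDN (0.971) and SOCS3 (0.971). SOCS3, a feedback inhibitor induced by STAT3, averaged 1.492 CPM in PBS, 165.1 with OSM, 3.03 with TGFB and 6.35 with EGF+TGFB. CCL20 was nearest to HRH1 (0.991), CHSY1 (0.991) and CD59 (0.987), and CCL28 to SOS1 (0.987), PGRMC2 (0.977) and NF1 (0.977).

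Receptors for these ligands changed too. Of 23 chemokine receptor genes 9 passed the filter on low counts. OSM raised 3 of them and lowered 1 (33.5% and 29.8% of all genes), EGF raised none and lowered 5 (34.9% and 38.6%), and TGFB raised 4 and lowered none (19.9% and 15.8%). OSM's 3 of 9 is at the share over all genes. Their median log2 fold change was 0.08, −1.23 and 0.09 in turn. CXCR1, a receptor of CXCL8, rose from 0.675, 0.755 and 0.513 CPM in PBS to 20.7, 25.3 and 14.4 with OSM, a log2 fold change of 4.94 ± 0.26 (edgeR adjusted p 1.82e-14). CXCR2, the receptor shared by the neutrophil attractants, rose from 0.150, 0.194 and 0.293 CPM to 5.27, 7.21 and 5.32 (4.79 ± 0.37). Only in groups with OSM was CXCR2 over the filter in all libraries, so its rise and its part in these counts are descriptions. OSM thus stood far above PBS for both receptors in all libraries, while CXCL8 itself was only slightly above it.

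Both receptors were lower again when a second ligand accompanied OSM. CXCR1 stood at 5.87 ± 1.56 CPM with EGF+OSM, 7.52 ± 1.20 with OSM+TGFB and 4.01 ± 1.16 with all 3 ligands. CXCR2 stood at 0.861 ± 0.372, 1.43 ± 0.314 and 0.335 ± 0.0187 in the same groups and was at 0 with EGF+TGFB. With EGF added to OSM, CXCR1 fell by 1.78 on the log2 scale and CXCR2 fell by 2.77 (edgeR adjusted p 5.77e-08 and 6.42e-08). As CXCR1 and CXCR2 are close paralogs, reads could have been assigned to the wrong one of the pair.

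CXCR4, the receptor of CXCL12, averaged 11.4 ± 0.541 CPM under PBS, 0.570 ± 0.0965 under EGF and 17.2 ± 1.70 under TGFB. With EGF it fell by 4.31 on the log2 scale (edgeR adjusted p 1.39e-11), and ACKR3, a scavenger of CXCL12, fell by 3.16 (2.1e-11). TGFB raised ACKR3 from 3.12 ± 0.473 to 20.6 ± 2.59 CPM (2.73 ± 0.17) and ACKR2, a scavenger of inflammatory CC chemokines such as CCL2, from 1.09 ± 0.285 to 4.47 ± 0.736 (2.04 ± 0.19). ACKR2 was highest with OSM+TGFB, at 14.5 ± 1.88 CPM.

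**Figure D4:**
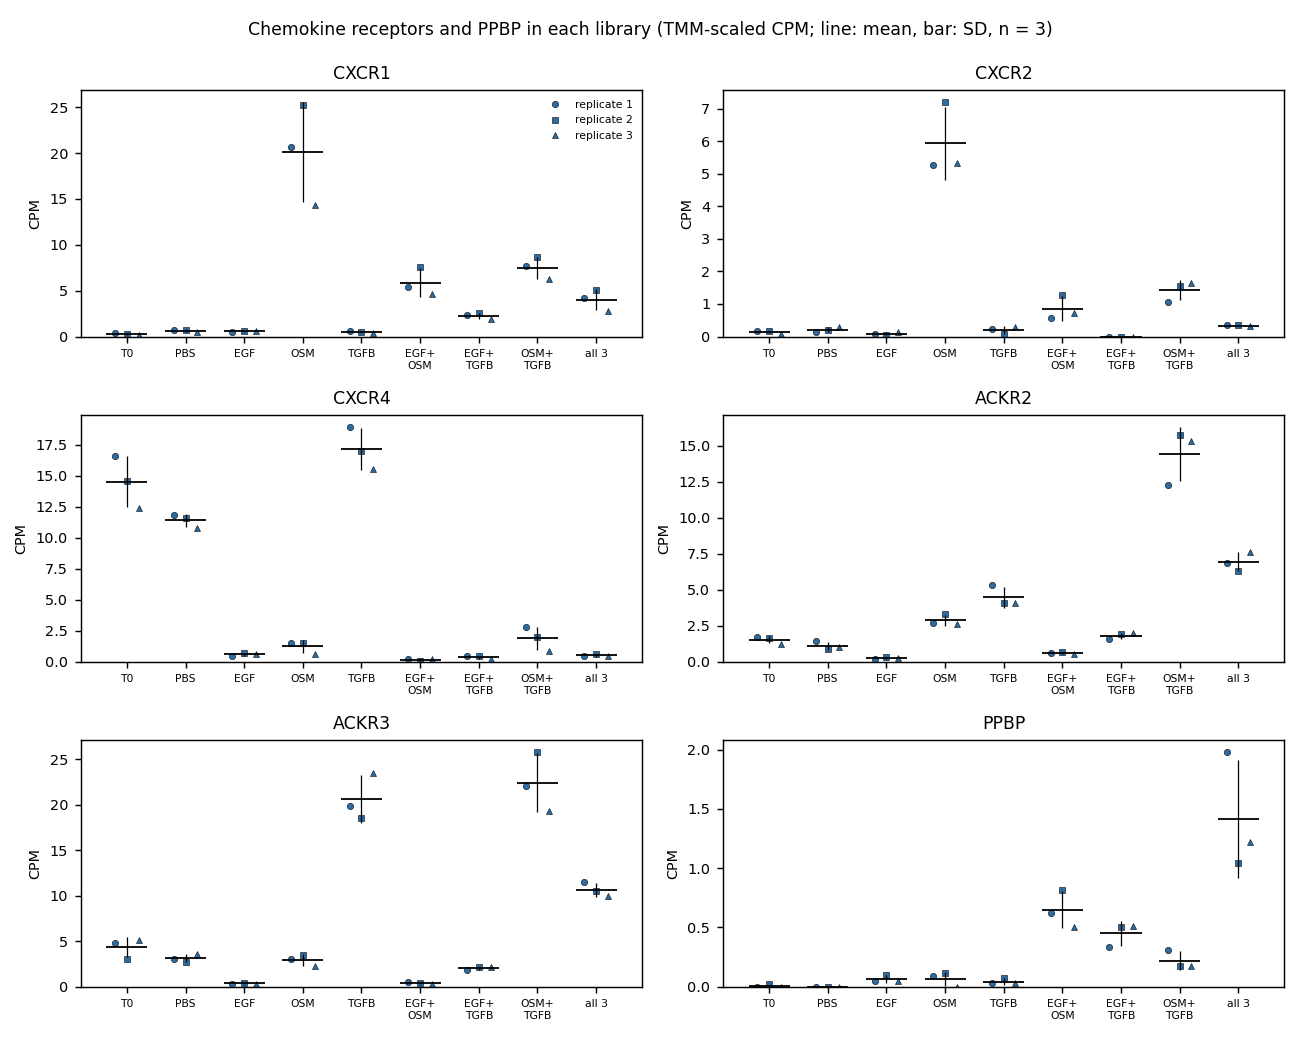
Level in TMM-scaled CPM (vertical axes, linear, different for each gene) of 5 chemokine receptors and of PPBP in the 3 libraries of each group (horizontal axes); points are libraries, horizontal lines means and vertical bars SD. CXCR1 and CXCR2 are highest with OSM alone, at 20.1 and 5.93 CPM, ACKR2 is highest with OSM+TGFB at 14.5, and PPBP is at 0 in PBS and highest with all 3 ligands at 1.42.

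Of 35 other chemokine genes 34 were in the table and 8 passed the filter. With all 3 ligands 2 of the 8 were higher and 5 lower (37.7% and 36.7% of all genes), and their median log2 fold change was −2.26. The higher pair was PPBP and PF4, platelet chemokines of the same chromosome 4 cluster. Both passed the filter only through groups given combined ligands, so their calls and their part in these counts are descriptions. PPBP, another CXCR2 ligand, had 0 counts in PBS, 78 with EGF+OSM (0.648 ± 0.156 CPM) and 150 with all 3 (1.42 ± 0.497), the order also seen in CXCL3 and CXCL5. PF4 had 1 count in PBS and 28 with all 3 ligands. CXCL14, a chemokine of normal epithelia, fell from 14.9 ± 2.41 CPM in PBS to 0.701 ± 0.0482 with EGF (−4.41 ± 0.36, edgeR adjusted p 3.6e-10) and rose to 27.9 ± 2.78 with TGFB (0.90 ± 0.27, adjusted p 0.0108). CCL28 moved in the same directions.

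The NF-kB list of 15 factors and feedback genes, all tested, was mixed with single ligands: 3 higher and 7 lower with EGF (34.9% and 38.6% of all genes), 4 and 5 with OSM (33.5% and 29.8%) and 4 and 2 with TGFB (19.9% and 15.8%). TGFB added to EGF raised 12 of 15 and lowered none, where 27% of all genes were raised and 27.7% lowered. Added to OSM it raised 10 and lowered 1, where 26.1% were raised and 25.6% lowered. The list's medians were 0.56 and 0.36 on the log2 scale. TRAF1, a target and adaptor of the pathway, rose most with EGF+TGFB, from 0.825 ± 0.177 to 7.02 ± 1.27 CPM (3.09 ± 0.27, edgeR adjusted p 1.04e-10). NFKBIZ, a nuclear coactivator of NF-kB at secondary response genes, was lower there (−1.84). EGF alone lowered NFKBIZ (34.1 ± 2.72 to 7.74 ± 1.62 CPM) and BIRC3 (132.6 ± 13.2 to 38.3 ± 3.92).

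Among 15 cytokines and receptors that act upstream of chemokines 13 were tested, and 9 were higher and 3 lower with all 3 ligands, against 37.7% and 36.7% of all genes. IL6 had 0 counts in PBS, 6 with EGF, 13 with OSM, 32 with TGFB, 723 with EGF+TGFB and 1450 with all 3 (14.1 ± 1.60 CPM). IL6 passed the filter only through ligand groups, so its part in these counts is a description. CSF3, the neutrophil growth factor G-CSF, averaged 0.767 ± 0.197 CPM under PBS, 14.2 ± 2.50 under EGF, 10.5 ± 2.95 under OSM and 62.3 ± 2.48 under EGF+OSM. Both were highest in combinations, IL6 with all 3 ligands and CSF3 with EGF+OSM.

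Of 10 genes that act on the decay of AU-rich or stem-loop transcripts all were tested. EGF raised 5 and lowered 5 (34.9% and 38.6% of all genes), OSM raised 6 and lowered 3 (33.5% and 29.8%), and TGFB raised 3 and lowered 1 (19.9% and 15.8%). HNRNPD, which binds AU-rich RNA, rose from 94.8 ± 5.89 CPM in PBS to 222.6 ± 10.05 with EGF (1.23 ± 0.07, edgeR adjusted p 2.14e-14). Of 10 proteases that can cut or shed chemokines 8 were tested. TGFB raised 6 of them and lowered none (19.9% and 15.8% of all genes), EGF raised 3 and lowered 4 (34.9% and 38.6%), and OSM raised 3 and lowered 3 (33.5% and 29.8%). EGF+TGFB raised 6 and lowered 2 of the 8 (36.2% and 37.5% of all genes). MMP9, which can trim CXCL5 and CXCL8, was highest with EGF+TGFB, at 104.2 ± 12.5 CPM against 6.21 ± 1.96 in PBS. CXCL8 was highest with EGF+TGFB as well.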

How the data were processed

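Polyadenylated RNA of 27 MCF10A libraries, 9 groups of 3, was sequenced with a stranded kit, per the labels' protocols. The deposited table holds whole numbers per gene, taken here as rounded estimated counts because the authors name kallisto 0.46.2. Trim Galore 0.4.3, cutadapt 1.10, FastQC 0.11.5, R 3.5.0 and the build GRCh38.p5 (hg38) are named too, per the submitters' processing notes. The order of the steps, and how transcripts were summed to genes, is not given in the sources used here.

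Rows sharing a symbol were summed (1962 symbols had several rows), and the 7165 rows without a symbol, 0.324% of all counts, were tested under their identifiers. edgeR 4.0.16 in R 4.3.3 (filterByExpr with a minimum count of 10, which is 0.253 CPM at the median total; TMM scaling; robust quasi-likelihood fit of all 9 groups, 18 residual degrees of freedom) tested 15575 genes in 23 contrasts, each with Benjamini-Hochberg adjustment over all genes. TMM factors ran from 0.867 to 1.12, and the common biological coefficient of variation was 7.83%. The fit was tested on simulated data. Replicates of a group were not duplicates: the chi-square between their counts was at least 7.28 times its degrees of freedom in every pair.

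DESeq2 1.42.0, its size factors, upper-quartile scaling, no filter, rows as deposited, identical rows counted once, a fit of only the groups compared, the replicate number as a block, a threshold of 0.01 and leaving out each library were the alternatives. The same replicate numbers occur in all groups, with no label saying what they share. The correlation of same-numbered deviations from group means was over 0.1 in all 3 pairs of libraries for 14 of 36 pairs of groups (lowest −0.0736, median 0.150, highest 0.387), and the block is printed beside a result only for such pairs of groups.

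The members and gene lists were chosen with earlier results of these data known. The genes named besides the 10 chemokines are, for each, the 3 tested genes with the highest Pearson correlation of log2 group means (mean of at least 1 CPM). For each list the rule was to name the 2 called genes with the largest absolute log2 fold change in a comparison described. It was not applied in full: from the decay and protease lists only HNRNPD and MMP9 are named. Where a group had 3 counts or fewer, the ratio of summed counts scaled by depth is given with an exact 95% interval. Promoters come from RefSeq (GRCh38.p14), which gave 9 for 8 of the 10 chemokines. Protein sequences were not used here.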

Additional observations from a re-analysis of the deposited data

Results flagged for a closer look

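The effect of OSM on CXCL8 had opposite signs depending on what it was added to. OSM alone gave a log2 fold change of 0.71 against PBS, and on top of EGF it gave −0.61. The difference was −1.32 (edgeR quasi-likelihood interaction test, Benjamini-Hochberg adjusted p 0.00159). On top of TGFB OSM gave −0.84, a difference of −1.55 from its effect alone (adjusted p 0.00133). All 3 OSM libraries lay above all 3 PBS libraries, all 3 EGF+OSM libraries below all 3 EGF libraries, and all 3 OSM+TGFB libraries below all 3 TGFB libraries. Both differences were called under every setting run, with adjusted p up to 0.0103 and 0.00617. The effect of OSM alone was lost without PBS replicate 3 (0.48, adjusted p 0.089) or OSM replicate 2 (0.49, 0.111), and the effect on top of EGF without EGF replicate 1 (−0.48, 0.0915) or EGF+OSM replicate 3 (−0.46, 0.105). The OSM and PBS libraries are shared by both differences.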

How the results depend on the processing

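Of 147 effects called for the 10 chemokines, 121 were called under every setting run and 133 under every setting that kept all libraries. Settings that kept all libraries left direction and call as they were in 1220 of 1258 values, and leaving out a library did so in 1009 of 1107. The number of members called moved by over 1.5 times for OSM against EGF (4 with only the groups compared, 4 to 7 with a library left out), TGFB added to EGF+OSM (3 with no filter, 2 to 6 with a library left out) and TGFB added to OSM (3 with the replicate block, 1 to 2 with a library left out). With a library left out it was also 1 to 2 for the departure of EGF+TGFB, 5 to 8 for OSM against PBS, 3 to 5 for TGFB against PBS and 2 to 6 for the TGFB effect with EGF minus with OSM. Signs turned in values that were not called: CXCL8 in the departure of EGF+TGFB (0.0328 with no filter, −0.2232 to 0.2212 with a library left out), CXCL1 with EGF added to OSM (−0.3633 to 0.0209) and CXCL8 with TGFB added to OSM (−0.067 to 0.2855). The cause was not tested.

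For groups whose numbers were not shown to pair, the replicate block added calls for CXCL16 (OSM against PBS −0.20, edgeR adjusted p 0.019; EGF added to TGFB −0.26, 0.00262; all 4 departures, 0.00128 to 0.0353), CXCL1 (PBS against T0 0.65, 0.00862) and CCL28 (EGF added to OSM+TGFB −0.28, 0.0117). Beside these and the 6 calls given with the results, it changed no other call of a member. A library correlated best with its own number in all 3 cases for 23 of 36 pairs of groups, a hint from the data and not the design. The block moved the count over all genes by over 1.5 times only for the TGFB effect with EGF minus with OSM (1865 against 1126). Upper-quartile scaling moved the median over all genes by −0.094 to 0.0596. CXCL5, CXCL10 and CCL2, with 257, 209 and 245 counts over 27 libraries, are limited by depth.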
